A study of Juglans regia with 12 samples.

Results

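The miR319 family of Persian walnut (Juglans regia) was examined in flower buds as 23 of the 931 mature miRNA sequences listed for this tissue, chosen because their matched miRNA name carries the number of this family. Of these, 5 sequences have at least 60 counts over the 6 small RNA libraries and are described singly, and the other 18, with 227 counts together, are described as a sum. The buds came from field-grown trees of 2 types, with 3 libraries each. The early-flowering type is labelled precocious walnut (ZS) with the stage Early flower, and the late-flowering type is labelled late fruiting walnut (WS) with the stage Late flower, so the type and a possible difference in stage cannot be told apart. No genotype, clone or tree is given for a library, and nothing in the labels says that replicates are separate trees. A p-value here therefore reflects only how much these libraries vary, which may be technical.

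In plants such as Arabidopsis, miR319 guides cleavage of mRNAs of the CINCINNATA class of TCP transcription factors, which slow cell proliferation and promote differentiation in leaves and petals. Its sister family miR159 is almost the same in sequence but acts mainly on GAMYB-type MYB mRNAs, which work in anthers and in gibberellin responses. In Arabidopsis flowers, miR159, miR319 and miR167 have been placed in a common circuit of floral organ maturation.

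The sequences below are those the results turn on, written 5′ to 3′ as DNA, with bases 2 to 8 (the seed) in capitals. The first 5 are the miR319 sequences with at least 60 counts in total. The next is a complementary-strand sequence, and the last 2 carry miR159 names and serve for comparison.
jre-MIR159-3: tTGGACTGaagggagctccc
jre-MIR319-1: tTGGACTGaagggagctcct
jre-MIR319-4: tTGGACTGaagggagctccca
jre-MIR159-32: cTTGGACTgaagggagctcct
jre-MIR319-6: tTGGGCTGaagggagctccc
jre-MIR159-33: gAGCTCTCttcagtccact
jre-MIR159-14: cTTGGACTgaagggagctccc
jre-MIR159-2: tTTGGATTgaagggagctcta

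The 5 main miR319 sequences are close variants of a single 20-base sequence. jre-MIR319-1 differs from jre-MIR159-3 by C20T, its last base, and jre-MIR319-6 by A5G, which lies in the seed (positions counted from 1 at the 5′ end of jre-MIR159-3). jre-MIR319-4 is jre-MIR159-3 with an added 3′ A, and jre-MIR159-32 is jre-MIR319-1 with an added 5′ C, which shifts its seed by 1 base. The seed of jre-MIR159-3 was shared by 9 of the 23 sequences, which held 97.6% of the 16368 miR319 counts. The shifted seed of jre-MIR159-32 was shared by 2 sequences and held 1.04%.

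The deposited family column placed 15 of the 23 sequences, with 11984 of the 16368 counts, under MIR159, among them the leading jre-MIR159-3. The other 8 sequences, with 4384 counts, stood under MIR319. One sequence with a miR159 name, jre-MIR159-14, is jre-MIR159-3 with an added 5′ C. It has the seed of jre-MIR159-32, and it differs from jre-MIR159-2, the most abundant miR159 sequence, at 4 positions (C1T, C7T, C20T and C21A, counted from the 5′ end of jre-MIR159-14). It is therefore described beside miR319 but not counted in it. The sources used here do not say how reads that differ by a single base were assigned, so levels of such close forms are uncertain.

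The libraries held 309697 to 646408 counts of listed miRNAs, the lowest in early-flowering replicate 1. Levels below are CPM, counts scaled to a common library total, after TMM scaling, which also corrects for composition. With 3 counts taken as the floor, detection ends at 4.77 to 10.3 CPM depending on the library. This floor and the Wilson intervals given for shares cover counting error only. The intervals of the edgeR fold changes also include the spread between libraries. These libraries measure whole buds, so fewer cells that make a miRNA and less of it per cell cannot be told apart. No marker check of the tissue was made, since the gene IDs of the mRNA libraries carry no names.

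The miR319 sum was about 2.26 times as high in early-flowering buds. Early-flowering replicates 1, 2 and 3 were at 7191, 8440 and 6434 CPM. Late-flowering replicates 1, 2 and 3 were at 2636, 3443 and 3695 CPM. All early-flowering libraries lay above all late-flowering ones, and early-flowering replicate 2 was the highest of the 6. Such a separation upward was seen in 13.5% of the 37 families tested (5 families), and 8.11% (3 families) rose by the edgeR test. For the summed miR319 counts the log2 fold change was 1.17 (SE 0.20, 95% interval 0.72 to 1.63, edgeR adjusted p over all families = 0.00276), against a median of −0.01 over the tested families. As a share of all listed miRNA counts, which uses no scaling, miR319 made up 0.674%, 0.843% and 0.626% in early-flowering replicates 1, 2 and 3. The late-flowering replicates held 0.244%, 0.358% and 0.417%.

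**Figure D1:**
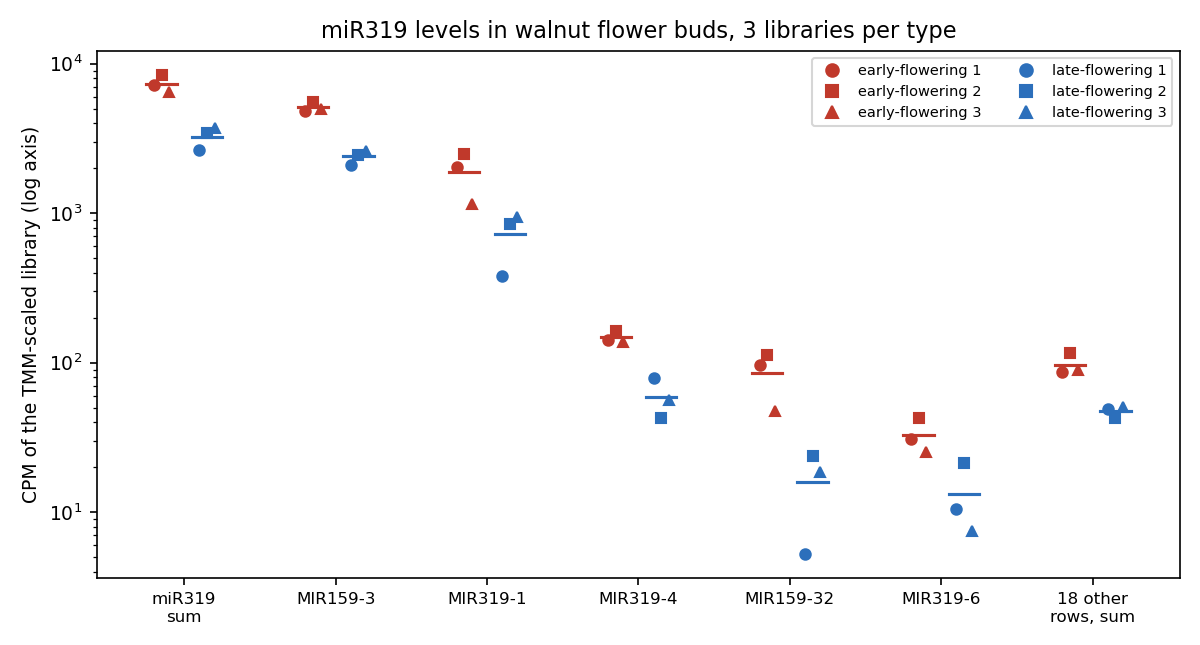
Level of the miR319 sum, of the 5 miR319 sequences with at least 60 counts and of the sum of the 18 others, in CPM of the TMM-scaled library on a log axis; each point is a library and each line a group mean (n = 3). Early-flowering libraries lie above late-flowering ones in every column, with the largest ratio of means in MIR159-32 (85.7 against 15.9 CPM).

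Most of the family's counts came from jre-MIR159-3, matched to aof-miR319a, which ranked 30 to 34 among all sequences in the early-flowering libraries and 41 to 43 in the late-flowering ones. It stood at 4813, 5512 and 4983 CPM in early-flowering replicates 1, 2 and 3. In late-flowering replicates 1, 2 and 3 it stood at 2110, 2470 and 2615 CPM. Its spread within a type was small beside the distance between types, with means of 5103 ± 364 and 2398 ± 260 CPM (SD, n = 3 each). The log2 fold change was 1.09 (SE 0.20, 95% interval 0.62 to 1.56, edgeR adjusted p = 0.0143). That call was kept without early-flowering replicate 1 (edgeR adjusted p = 0.0191) and lost on leaving out any other library, namely early-flowering replicate 2 or 3 or late-flowering replicate 1, 2 or 3 (edgeR adjusted p = 0.0506 to 0.119), while the log2 value over all 6 omissions stayed at 0.93 to 1.08.

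The second sequence, jre-MIR319-1, matched to aof-miR319b, varied more. It was at 2023, 2493 and 1151 CPM in early-flowering replicates 1, 2 and 3. It was at 382, 843 and 947 CPM in late-flowering replicates 1, 2 and 3. The groups did not overlap, but early-flowering replicate 3 lay close to late-flowering replicate 3, and late-flowering replicate 1 was far below the other two of its type. The log2 difference of 1.38 (SE 0.41, 95% interval 0.44 to 2.33) did not pass (edgeR adjusted p = 0.0624). It passed with DESeq2 (adjusted p = 0.0329) and without a filter on low counts (edgeR adjusted p = 0.00132). In the other 12 of 14 alternative settings it did not pass. These include each omission of a single library (edgeR adjusted p = 0.0590 to 0.238).

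The 3 less abundant forms were higher in early-flowering buds as well. jre-MIR319-4, the form with a 3′ A, was at 141, 163.6 and 138 CPM in the early type and at 79.1, 43.0 and 56.2 CPM in the late type. It rose by 1.31 on the log2 scale (SE 0.30, edgeR adjusted p = 0.0272). The call was lost without early-flowering replicate 2 or 3 or late-flowering replicate 2 or 3 (edgeR adjusted p = 0.0584 to 0.119). jre-MIR159-32, the form with a 5′ C, was at 96.5, 113 and 47.7 CPM against 5.27, 23.6 and 18.7 CPM. Counts in the late type were as low as 3, 11 and 10, close to the floor. It rose by 2.43 on the log2 scale (SE 0.55, 95% interval 1.16 to 3.70, edgeR adjusted p = 0.0272). The call was lost on leaving out early-flowering replicate 2 or any of the 3 late-flowering libraries (edgeR adjusted p = 0.0559 to 0.121), with log2 values of 1.998 to 2.74 over all 6 omissions. jre-MIR319-6, with the A5G seed, had 9, 26 and 16 counts in the early type and 6, 10 and 4 in the late type, or 33.0 ± 8.72 against 13.2 ± 7.36 CPM (SD, n = 3 each). Its log2 difference of 1.34 (SE 0.50, 95% interval 0.19 to 2.49) did not pass (edgeR adjusted p = 0.106).

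Of the 23 miR319 sequences, 6 had enough counts to be tested and 17 did not. The sixth, jre-MIR159-33, had 54 counts, just under the limit of 60 for single description, where jre-MIR319-6, with 71, was just above it. Among the 6 tested, 3 rose and 0 fell, where 4.94% of the 243 sequences tested rose and 6.58% fell. Their log2 fold changes ran from 0.76 to 2.43, beside a median of 0.13 over all tested sequences, of which 138 were positive and 105 negative. Groups did not overlap in 5 of the 6, where 19.8% of all tested sequences were separated upward. A sequence could enter the test through the higher group alone, and the forms share a core, so these counts describe the 6 sequences and are not independent evidence. When near-identical sequences were merged, jre-MIR159-3 took in jre-MIR319-4 and jre-MIR319-6, and jre-MIR319-1 took in jre-MIR159-32. The merged jre-MIR159-3 also holds 2 rows with miR159 names, jre-MIR159-14 (1011 counts) and jre-MIR159-52 (9 counts). On the log2 scale the merged jre-MIR159-3 then differed by 1.08 (edgeR adjusted p = 0.0136) and the merged jre-MIR319-1 by 1.33 (edgeR adjusted p = 0.0742).

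**Figure D2:**
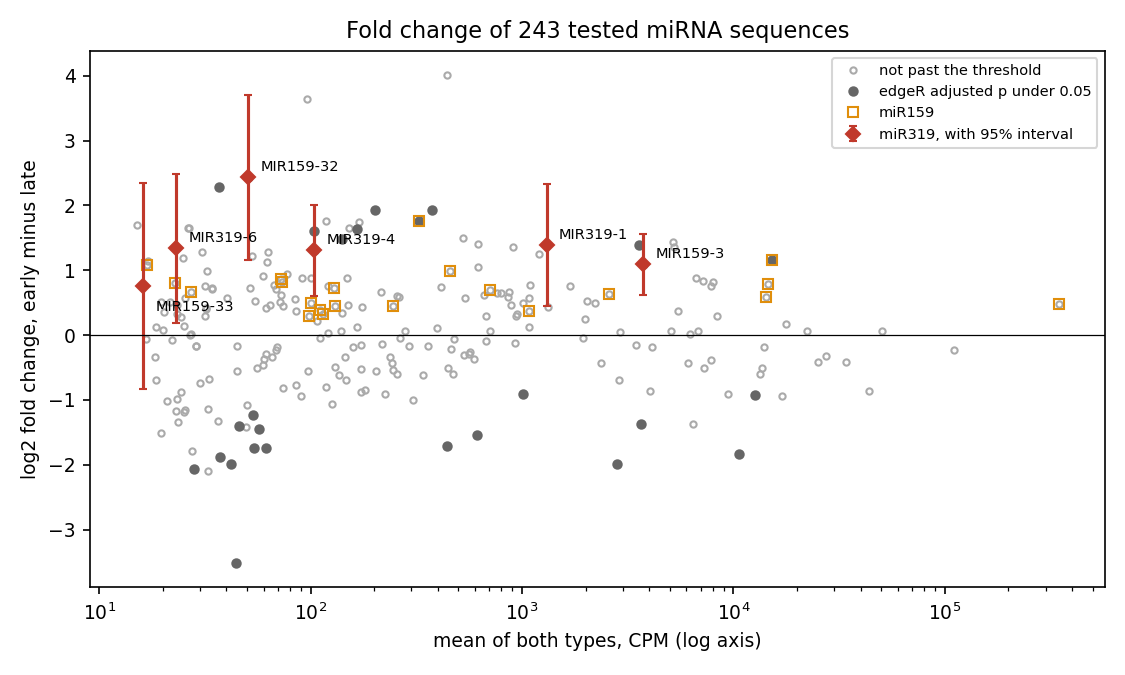
Log2 fold change (early minus late) against mean CPM (log axis) for the 243 tested sequences; filled grey circles passed the edgeR test, orange squares carry miR159 names, and red diamonds are the 6 tested miR319 sequences with 95% intervals. The miR319 points lie between 0.76 and 2.43, and the interval of MIR159-33 alone among them includes 0.

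The shares of the main sequences varied between libraries, and those of the 2 largest did not separate the types. jre-MIR159-3 held 66.9%, 65.3% and 77.4% of miR319 counts in early-flowering replicates 1, 2 and 3. It held 80.1%, 71.7% and 70.8% in late-flowering replicates 1, 2 and 3. The ranges overlapped, with means of 69.9 ± 6.59% and 74.2 ± 5.11% (SD, n = 3 each; exact two-sided permutation p = 0.5). jre-MIR319-1 made up most of the remainder, at 28.1%, 29.5% and 17.9% against 14.5%, 24.5% and 25.6%. Early-flowering replicate 3 and late-flowering replicate 1 were thus alike in having the lowest shares of this form. The number of jre-MIR159-3 counts per jre-MIR319-1 count was 2.38, 2.21 and 4.33 in the early type and 5.53, 2.93 and 2.76 in the late type (exact two-sided permutation p = 0.5 on the log2 ratio). Of the less abundant forms, jre-MIR159-32 alone separated the types, at 1.34%, 1.34% and 0.741% of miR319 counts in the early type and 0.200%, 0.687% and 0.507% in the late type (exact two-sided permutation p = 0.1, the smallest possible).

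A similar pattern was seen in the 8 forms that hold bases 2 to 19 of jre-MIR159-3 unaltered, grouped by the base that follows, which 1 of them, jre-MIR159-12, lacks. The 5 with T there, led by jre-MIR319-1, summed to 1997 ± 722 CPM in early-flowering and 751 ± 311 CPM in late-flowering buds (SD, n = 3 each). The 2 with C there, jre-MIR159-3 and jre-MIR319-4, summed to 5250 ± 377 and 2458 ± 246 CPM. Of the T counts, 3950 of 4151 were jre-MIR319-1, and of the C counts, 11646 of 11969 were jre-MIR159-3. This grouping therefore largely repeats the comparison of those 2 sequences above and is not separate evidence. Libraries of a type differed more in the T forms than in the C forms, relative to the mean. T forms made up 30.2%, 31.7% and 19.2% of the 2 groups together in the early type and 15.3%, 25.9% and 26.8% in the late type (exact two-sided permutation p = 0.5).

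**Figure D3:**
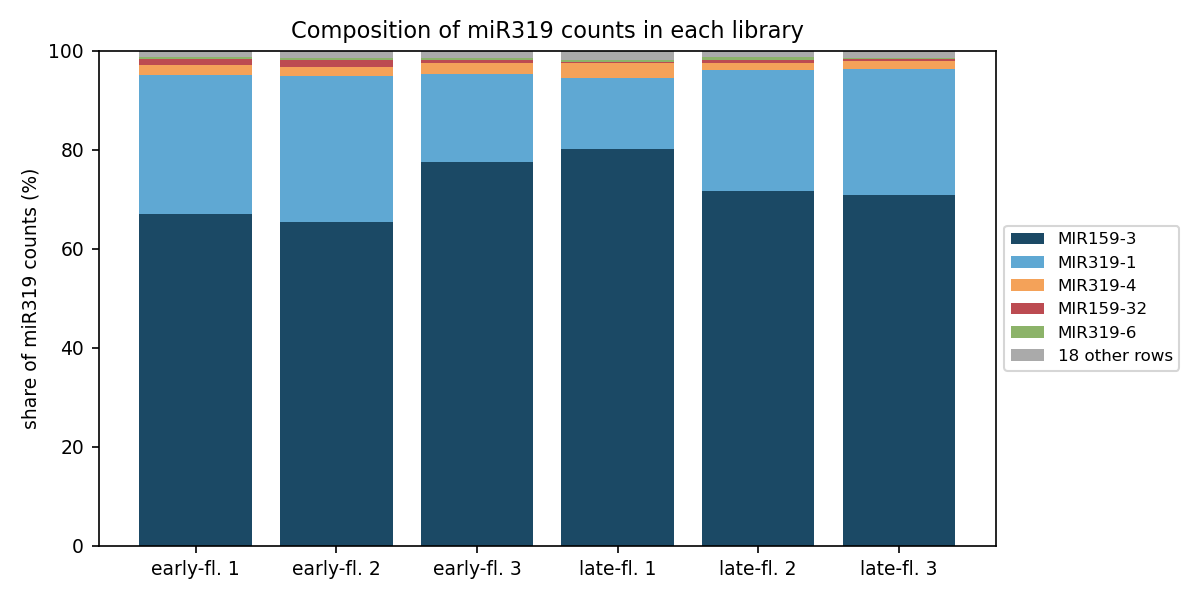
Share of miR319 counts (%) held by each of the 5 main sequences and by the 18 others, as stacked bars for each of the 6 libraries. jre-MIR159-3 (dark blue) holds 65.3% to 80.1% and jre-MIR319-1 (light blue) 14.5% to 29.5%, with early-flowering replicate 3 resembling late-flowering replicate 1.

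Forms with an added 5′ C made up a larger share of their base form in early-flowering buds, for both of the main sequences. This comparison was chosen after the values were seen. jre-MIR159-32 was 4.55%, 4.33% and 3.98% of the sum of itself and jre-MIR319-1 in early-flowering replicates 1, 2 and 3, and 1.36%, 2.73% and 1.94% in late-flowering replicates 1, 2 and 3. jre-MIR159-14 was 8.75%, 9.41% and 8.60% of the sum of itself and jre-MIR159-3 in the early type, and 6.76%, 5.59% and 5.22% in the late type. All early-flowering shares lay above all late-flowering ones in both pairs, although counting intervals of single libraries overlapped (95% Wilson interval 7.44% to 10.3% for jre-MIR159-14 in early-flowering replicate 1 and 5.51% to 8.26% in late-flowering replicate 1). Mean shares differed by 2.28 percentage points for the first pair (4.29 ± 0.29% against 2.01 ± 0.69%) and by 3.07 for the second (8.92 ± 0.43% against 5.86 ± 0.80%; SD, n = 3 each). The exact two-sided permutation p was 0.1 for each, the smallest that 3 against 3 libraries allow.

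jre-MIR159-14 itself stood at 462, 573 and 469 CPM in the early type and at 153, 146 and 144 CPM in the late type, and rose by 1.76 on the log2 scale (SE 0.25, edgeR adjusted p = 0.00536). It lost its call without late-flowering replicate 3 (edgeR adjusted p = 0.0555). Among all 7 pairs in the table that differ by a single added 5′ base, with at least 60 counts each, 42.9% (3 pairs) had the longer form's share separated upward. Those were both miR319 pairs and 1 of the 5 others. Among 19 pairs that differ by an added 3′ base it was 10.5% (2 pairs). The 3′ form jre-MIR319-4 made up 2.85%, 2.88% and 2.70% of the sum of itself and jre-MIR159-3 against 3.61%, 1.71% and 2.10%, with overlapping groups (exact two-sided permutation p = 0.6). For the substituted form jre-MIR319-6 the mean shares were 0.638 ± 0.129% and 0.549 ± 0.292% (SD, n = 3 each; exact two-sided permutation p = 0.7).

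**Figure D4:**
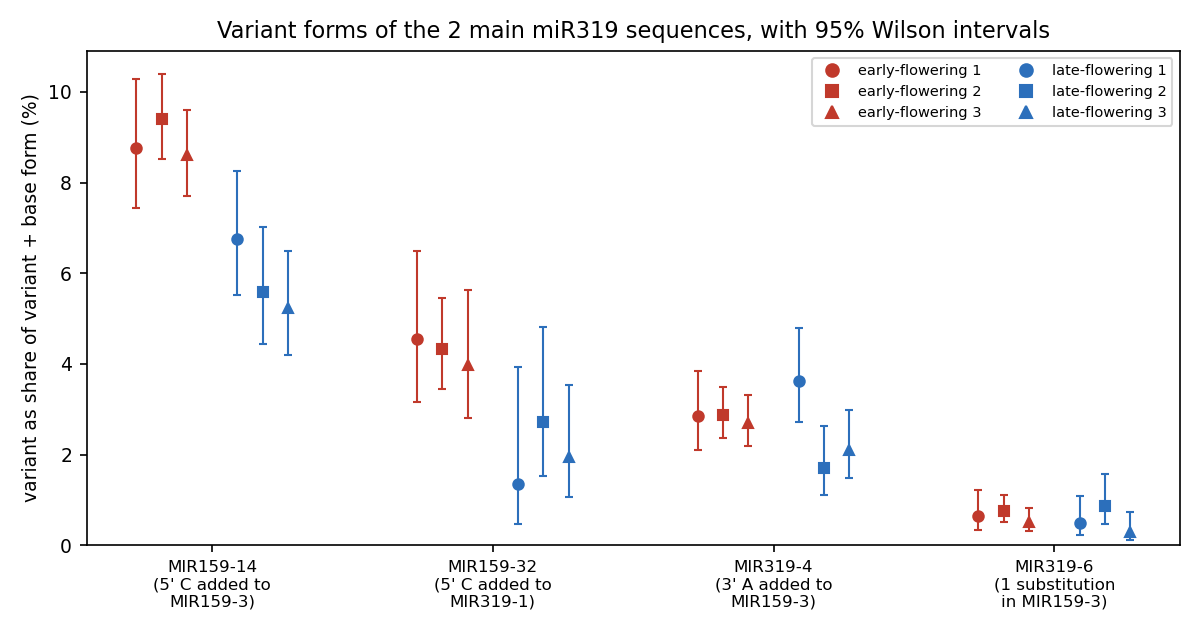
Counts of each variant as a percentage of the variant plus its base form, per library, with 95% Wilson intervals that cover counting error only. The 2 forms with an added 5′ C separate the types (8.60% to 9.41% against 5.22% to 6.76%, and 3.98% to 4.55% against 1.36% to 2.73%), while the 3′ A form and the substituted form overlap.

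In both types nearly all miR319 counts were of 20 bases, and most other counts were of 21 bases. Sequences of 20 bases held 96.0 ± 0.41% of miR319 counts in early-flowering and 96.4 ± 0.91% in late-flowering buds (SD, n = 3 each). In the whole libraries, 20-base sequences held 1.38 ± 0.20% and 1.32 ± 0.20% of the counts, and 21-base sequences 87.8 ± 1.27% and 82.7 ± 0.40%. miR319 made up 53.9%, 50.5% and 44.6% of all 20-base counts in the early type and 20.2%, 27.3% and 26.1% in the late type. The total share of 20-base counts did not separate the types (exact two-sided permutation p = 0.7). That of 21-base counts did, with all early-flowering libraries above all late-flowering ones (exact two-sided permutation p = 0.1, the smallest possible). Both 5′-extended forms above have 21 bases, and a link between their shares and this difference was not tested. The sources used here do not say whether reads of other lengths were pooled under a listed sequence.

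The 18 sequences with under 60 counts, of 1 to 54 counts each, summed to 25, 71 and 56 counts in early-flowering and 28, 20 and 27 in late-flowering buds. That corresponds to 97.1 ± 16.6 against 47.6 ± 4.03 CPM (SD, n = 3 each), with no overlap. Of the 18, 14 had a higher mean CPM in early-flowering and 4 in late-flowering buds, 11 had under 10 counts in all, 6 had no count in any late-flowering library and 1 had none in any early-flowering library. Those 7 had 1 to 3 counts each. The same tallies were not made over all similarly scarce sequences, so they only describe these 18. Among the 18, 3 sequences (97 counts) hold the reverse complement of bases 2 to 11 of jre-MIR159-3. jre-MIR159-33 led these, with 3, 19 and 12 counts in the early type and 12, 1 and 7 in the late type. Its log2 fold change of 0.76 had a 95% interval of −0.83 to 2.35 and did not pass (edgeR adjusted p = 0.424). jre-MIR159-28, which differs from it by C6T, was too scarce for the test. The 3 made up 0.536 ± 0.115% of miR319 counts in early-flowering and 0.653 ± 0.151% in late-flowering buds (SD, n = 3 each; exact two-sided permutation p = 0.5).

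Relative to its sister family, miR319 was a small fraction of the signal. The miR159 sum was itself higher in early-flowering buds, at 467612 ± 45165 against 324237 ± 72181 CPM (SD, n = 3 each), with no overlap. Its log2 fold change of 0.53 did not pass (edgeR adjusted p over all families = 0.0829). For jre-MIR159-2 the value was 0.49, with overlapping groups (edgeR adjusted p = 0.155). The ratio below thus sets miR319 against a sum that was also higher in the early type. There were 1.72, 1.77 and 1.27 miR319 counts per 100 miR159 counts in early-flowering replicates 1, 2 and 3, and 0.647, 1.21 and 1.32 in late-flowering replicates 1, 2 and 3. Early-flowering replicate 3 fell below late-flowering replicate 3, so the groups overlapped, and the mean log2 ratios of −5.99 ± 0.27 and −6.63 ± 0.56 (SD, n = 3 each) had an exact two-sided permutation p of 0.2. The log2 difference of 0.63 fell to 0.31 when late-flowering replicate 1 was left out, and it was 0.83 on leaving out late-flowering replicate 3.

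Families with known links to TCP genes were set beside miR319 as a list of 4. In Arabidopsis, miR164 (which limits CUC boundary genes) and miR396 (which limits growth-regulating factors) act downstream of TCP factors, and miR159 and miR167 (which limits auxin response factors) share the floral circuit named above. Of 62 tested sequences in this list, 2 rose and 0 fell, where 4.94% of all tested sequences rose and 6.58% fell. By these calls the list was near the background. Of its fold changes 43 were positive and 19 negative, beside 138 and 105 over all tested sequences. The median log2 fold change of the list was 0.34, beside 0.13 over all tested sequences. Both that rose carry miR159 names. They were the 5′-extended jre-MIR159-14 and jre-MIR159-6 (21125 ± 6655 against 9450 ± 395 CPM, SD, n = 3 each, log2 1.16, edgeR adjusted p = 0.0248). By sequence, jre-MIR159-14 lies closer to jre-MIR159-3 than to jre-MIR159-2, so its rise is not separate from the miR319 forms. jre-MIR159-6 merges with jre-MIR159-2, which did not pass (log2 0.49, edgeR adjusted p = 0.155). The medians were 0.66 for 21 miR159 sequences and 0.67 for 6 of miR164, with every fold change positive in both families. They were 0.08 for 17 of miR396 (12 positive) and −0.29 for 18 of miR167 (4 positive). Some miR159 sequences differ only in an added end base or merge with jre-MIR159-2. Signs shared within a family are therefore not independent evidence.

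The sequences outside miR319 whose profile lay closest to that of jre-MIR159-3 were found by the root mean square difference of mean-centred log2(CPM + 1) over the 6 libraries. jre-MIR172-2, of the family that targets AP2-like floral repressors, was nearest at 0.193, at 4769, 5755 and 5008 CPM in early-flowering and 2075, 1846 and 2016 CPM in late-flowering buds. jre-MIR160-10 followed at 0.199, jre-MIR159-5 at 0.202, jre-MIR166-31 at 0.228 and jre-MIR390-2 at 0.261. Of these 5, only jre-MIR172-2 passed the edgeR test (edgeR adjusted p = 0.00536), where 4.94% of all tested sequences rose. The 5 were chosen in the same libraries for likeness to a sequence that had risen. That choice favours a rise, so the call is not separate evidence. Within the family, the difference from jre-MIR159-3 was 0.350 for jre-MIR319-4, 0.472 for jre-MIR319-1, 0.479 for jre-MIR319-6 and 0.945 for jre-MIR159-32. The median over all tested sequences was 0.730, so jre-MIR159-32 was farther from the leading form than the typical tested sequence. However, jre-MIR159-32 had only 3, 11 and 10 counts in the late-flowering libraries, and counting noise was not separated from this distance.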

How the data were processed

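Raw counts per mature miRNA sequence and library were used as deposited by the authors. The submitters' processing notes name FastQC, HISAT2, Cufflinks and DESeq2 without roles, and the sources used here do not give the mapping, counting or genome build of the small RNA reads. The mRNA table was not used, since its gene IDs carry no names. Groups and replicate numbers came from the sample titles. Counts of 243 sequences that passed filterByExpr (minimum count 10) were fitted with edgeR 4.0.16 in R 4.3.3 (TMM, robust quasi-likelihood, walnut type as the only term), with Benjamini-Hochberg adjustment over all tested sequences and a threshold of 0.05. Family sums used the number in the matched name and the same scaling. SEs were derived from the fold change and the F statistic. Shares and ratios inside a library were compared by exact permutation. Replicate libraries differed far beyond sampling noise (chi-square per degree of freedom 41.1 to 186). The named sequences were all miR319 rows with at least 60 counts, the miR159 rows that merge with them, the leading miR159 sequence and the 5 nearest profiles; jre-MIR159-33, jre-MIR159-28, jre-MIR159-12 and jre-MIR159-6 lie outside this rule and were named after their values were seen. Members and lists were chosen with earlier results of these data known. In 1 simulated draw over 243 sequences, with 30 changes planted, 26.7% of log2 changes of 1 and 73.3% of those of 2 were recovered, with 0 false calls. For merging, a sequence was joined to another with at least 10 times its counts if they differed by 1 substitution, or if the longer held the shorter with up to 3 extra bases at the ends (256 were joined).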

Additional observations from a re-analysis of the deposited data

How the results depend on the processing

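The miR319 sum kept its direction and its call in all 15 alternatives, with log2 values of 1.003 to 1.23, but its edgeR adjusted p reached 0.0496 without late-flowering replicate 3. The 28 changed sequences became 2 to 54 when single libraries were left out, and the 2 calls in the linked list became 0 to 6. No filter gave 5 calls in that list, and the cause was not tested. Merging gave 1 call, of a sequence other than the 2 called before. It absorbed jre-MIR159-14 into jre-MIR159-3, which lies outside the list. jre-MIR159-6 was absorbed into jre-MIR159-2, which did not pass after merging (edgeR adjusted p = 0.0819). The replicate block gave 17 sequences and 1 call in the list, and jre-MIR159-3 (edgeR adjusted p = 0.0620) and jre-MIR319-4 (0.0584) lost their calls. The replicate numbers gave no sign of pairing (correlations of deviations across sequences of −0.091, −0.087 and −0.30), and 0 of 6 libraries correlated best with their own number. With 3 libraries per type, these values cannot show that the libraries were unpaired. Placing rows by sequence moved the log2 value of the miR319 sum to 1.21. Each of the 5 main miR319 sequences had a positive fold change in every alternative that gave it a value; merging gave none for jre-MIR319-4, jre-MIR159-32 and jre-MIR319-6, which it absorbed. The difference in the share of jre-MIR159-3 stayed negative, at −8.06 to −1.35 percentage points without single libraries. The differences in 5′-extended shares, an omission test added after seeing the data, stayed at 1.95 to 2.64 and 2.75 to 3.52 points. Recovery of planted log2 changes of 1 was low over all tested sequences, so a missed call near that size says little. This recovery was not split by abundance.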
